A study of Saccharomyces cerevisiae with 2 samples.

Results

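The genes described here are the 10 that encode the hydrophilins and stationary-phase proteins *SIP18*, *GRE1*, *SPI1*, *YGP1*, *SPG1*, *SPG4*, *SPG5*, *STF2*, *MOH1* and *TMA10*. They were chosen by symbol, and all 10 were found in both libraries among the 5699 genes listed in either. Poly(A) RNA was sequenced from 2 *Saccharomyces cerevisiae* strains in early stationary phase, with 1 library per strain. BYZ1 is a diploid laboratory strain (MATa/MATalpha) derived from S288c. It carries the alleles his3delta1, leu2delta0 and ura3delta0 on both homologs, and lys2delta0 and met15delta0 on a single homolog. ZK2 is labelled a bioethanol strain, and its genotype and ploidy are not given in the sources used here. Both were started at an OD600 of 0.05 in 25 mL of YPD. Per liter, the labels list 20 g of glucose, 20 g of peptone and 10 g of yeast extract for ZK2, but 2 g, 2 g and 1 g for BYZ1. The study's methods give the richer recipe as its YPD, so the BYZ1 label may be a slip, which the files cannot settle. The study's methods also state that the RNA of a sample came from several individual cultures, and ZK2 is not described there. Strain, medium as labelled and the exact time of harvest cannot be told apart here.

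When glucose runs out, yeast cells pass through the diauxic shift, live on the ethanol they have made and then stop dividing. In this state they thicken the wall, build up protective proteins and become able to survive heat and drying. Hydrophilins are small proteins, rich in glycine and very hydrophilic, that accumulate when water becomes scarce. The stress factors Msn2 and Msn4 and the osmotic stress kinase Hog1 are known to act on many of the genes that are switched on at this stage, and the factor Haa1 acts on genes of the response to weak acids.

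Expression is given as RPKM, the uniquely mapped reads of a gene scaled to its coding length and to the total of its library. This level allows a rough comparison between genes. It does not correct for reads lost at the ends of short coding sequences. The BYZ1 library holds 4.69e+06 reads over 5671 genes and the ZK2 library 4.57e+06 reads over 5605 genes, with a median RPKM of 37.2 and 33.9. The deletions served to check the labels. *URA3* had 123 reads in ZK2 and no read in BYZ1, where a count of 0 leaves room for a level up to 0.796 RPKM (3 reads, a 1-sided limit). *LEU2* had 1 and 360 reads, and the *HIS3* reads covered 67.4% of its coding length in BYZ1 and 98.9% in ZK2. Of the genes deleted on a single homolog, *LYS2* had 451 reads in BYZ1 and 993 in ZK2. *MET15*, listed as *MET17*, went the other way, with 145 and 43 reads. BYZ1 keeps a copy of each of these, so their levels cannot settle the label. With 1 library per strain there is no replicate error and no test between strains. Values in brackets are 95% intervals that cover counting error only, exact Poisson intervals for a level and exact binomial (Clopper-Pearson) intervals for a ratio of the 2 libraries. Copies made by PCR cannot be told from separate molecules, so these intervals can be too narrow.

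All 10 genes were expressed far above the typical gene in both strains, but they did not differ between the strains in the same direction. The genes *SIP18*, *GRE1*, *TMA10*, *STF2*, *SPG1* and *SPG4* were lower in ZK2. The wall protein gene *SPI1*, *SPG5* and *MOH1* were higher, and the wall protein gene *YGP1* was at 1.68 times its BYZ1 level, short of the size used here. A gene was called higher or lower where the log2 ratio of ZK2 to BYZ1, computed on RPKM plus 1, was at least 1 in size, which is a rule of size and not a test. Of the 10 genes, 6 were called lower and 3 higher, and *YGP1*, with a log2 ratio of 0.75, was not called. Over the 5080 genes tested, those that reached an RPKM of 10 in either strain, 10.3% were called lower (524 genes) and 7.91% higher (402 genes). The median log2 ratio was -1.27 for the 10 genes and -0.17 for all genes tested. A scale set on the typical gene (the TMM factor of edgeR) moved the median of all genes to 0.00 and gave 346 genes lower and 535 higher. On it 5 of the 10 genes were called lower and 3 higher, and the change in count is that of *STF2*.

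**Figure D1:**
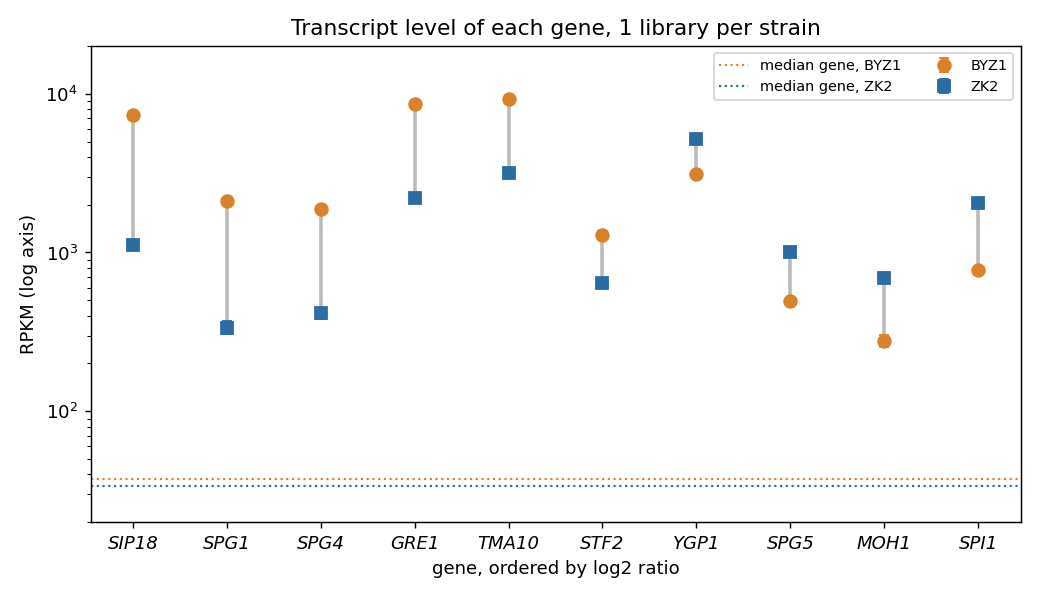
Transcript level of each of the 10 genes in BYZ1 (orange circles) and ZK2 (blue squares) in RPKM on a log axis. Bars are 95% Poisson counting intervals, mostly smaller than the symbols, and dotted lines mark the median gene of each library. The 6 genes on the left lie lower in ZK2 and the 4 on the right lie higher, and every point is above the medians of 37.2 and 33.9.

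*SIP18* and *GRE1*, paralogs from the whole genome duplication, encode hydrophilins that are induced by osmotic stress, and Sip18 is needed to survive drying and rehydration. *SIP18* occupies chr13:611015-611254 (plus strand) and *GRE1* chr16:128631-129137 (minus strand) in sacCer2, the build named for these files. In the R64 annotation the open reading frames of all 10 genes are uninterrupted, and no other annotated gene overlaps them. The 300 bases from 400 to 101 before each start codon are shown next for both genes, together with those of *SPI1* and *MOH1*, the genes with the highest ratios of ZK2 to BYZ1. They show what stands upstream of genes that differ in opposite directions. The sequences are those of the S288c reference R64 (RefSeq), read 5′ to 3′ on the strand of the gene, and those of ZK2 were not used here. Capitals mark AGGGG, the stress response element bound by Msn2 and Msn4, and AGGGAT, the core of the post-diauxic shift element bound by Gis1, on either strand (CCCCT and ATCCCT). The windows lie at chr13:610616-610915 (*SIP18*, plus strand), chr16:129239-129538 (*GRE1*, minus), chr5:467970-468269 (*SPI1*, plus) and chr2:126428-126727 (*MOH1*, plus) in R64.
SIP18: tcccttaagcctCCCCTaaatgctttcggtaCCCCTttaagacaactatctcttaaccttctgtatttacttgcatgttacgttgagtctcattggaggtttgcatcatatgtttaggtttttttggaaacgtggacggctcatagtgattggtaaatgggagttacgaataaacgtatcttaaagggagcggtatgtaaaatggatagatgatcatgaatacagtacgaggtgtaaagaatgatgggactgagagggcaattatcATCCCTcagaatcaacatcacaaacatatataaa
GRE1: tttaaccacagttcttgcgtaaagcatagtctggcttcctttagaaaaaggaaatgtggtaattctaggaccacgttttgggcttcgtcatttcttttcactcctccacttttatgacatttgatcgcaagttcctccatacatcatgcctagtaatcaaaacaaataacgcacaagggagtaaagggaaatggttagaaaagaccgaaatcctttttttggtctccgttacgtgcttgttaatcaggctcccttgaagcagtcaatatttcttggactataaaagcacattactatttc
SPI1: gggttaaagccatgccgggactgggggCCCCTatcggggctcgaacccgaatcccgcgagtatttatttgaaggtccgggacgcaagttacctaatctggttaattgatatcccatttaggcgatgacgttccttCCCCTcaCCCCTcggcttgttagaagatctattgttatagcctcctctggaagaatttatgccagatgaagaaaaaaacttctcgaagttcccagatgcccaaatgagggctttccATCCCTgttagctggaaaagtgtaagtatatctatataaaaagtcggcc
MOH1: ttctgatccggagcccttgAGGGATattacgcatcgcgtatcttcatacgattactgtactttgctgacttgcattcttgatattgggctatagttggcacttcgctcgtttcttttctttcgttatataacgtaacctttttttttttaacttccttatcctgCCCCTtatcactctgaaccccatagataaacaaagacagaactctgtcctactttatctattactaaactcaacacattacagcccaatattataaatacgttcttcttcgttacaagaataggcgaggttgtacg

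Among these windows the upstream region of *SIP18* held 2 matches to AGGGG and 1 to AGGGAT, and that of its paralog *GRE1* held neither. The window of *SPI1* held 3 matches to AGGGG and 1 to AGGGAT, and that of *MOH1* 1 of each. Of the other 6 genes, *STF2* had 2 matches to AGGGG and 1 to AGGGAT, *TMA10* had 1 to AGGGG, *YGP1* and *SPG1* had 1 to AGGGAT, and *SPG4* and *SPG5* had none. In all, 5 of the 10 windows held AGGGG, against 23.5% of 6001 windows of the same length in the genome, and 6 held AGGGAT, against 9.73%. The genome windows include those that run into a neighboring gene. The windows of the 10 genes lie outside other genes, except for 3 bases in that of *SPG5*, so these shares compare unlike sequence. The matches did not separate the genes by direction. AGGGG was present before 3 of the 6 genes lower in ZK2 and 2 of the 4 others, and AGGGAT before 3 of 6 and 3 of 4. A match is a run of letters and not a binding site, and its absence here says nothing of bases outside the window.

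The RPKM of *SIP18* was 7369 (7211 to 7529) in BYZ1 against 1111 (1050 to 1175) in ZK2, from 8289 and 1219 reads. It was the gene of the 12th highest RPKM in BYZ1 and ranked 136 in ZK2. Its level in BYZ1 was 6.63 times (6.24 to 7.05) that in ZK2, a log2 ratio of -2.73, which placed it 35th from the lowest of the 5080 genes tested. *GRE1* was at 8633 (8515 to 8752) in BYZ1 and at 2198 (2138 to 2259) in ZK2, with ranks of 11 and 57. The level in BYZ1 was 3.93 times (3.81 to 4.05) that in ZK2. In BYZ1 the paralogs stood at nearly the same level, with *GRE1* at 1.17 times *SIP18*, and in ZK2 *GRE1* stood at 1.98 times *SIP18*. Together they took 0.615% of all gene reads in BYZ1 and 0.138% in ZK2. The amount of transcript per cell and the share of cells that carry it cannot be told apart in such bulk RNA.

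The genes beside *SIP18* were lower as well. *PAI3*, which encodes an inhibitor of the vacuolar proteinase A, stood at 2081.0 RPKM against 881 (BYZ1, ZK2), and YMR175W-A, an uncharacterized gene on the other side, had 29 and 2 reads. Whether the few YMR175W-A reads stem from transcripts of *SIP18* was not tested. Neither neighbor of *GRE1* was called. Of the 12 genes next to the 6 lower genes, those 2 beside *SIP18* were the ones called lower, and none was called higher. None of the neighbors of the 4 other genes was called higher, and 1 of 7 tested, *CBK1* beside *YGP1*, was called lower. Over all genes tested, 10.3% were called lower and 7.91% higher. With so few neighbors, these counts cannot be told from those shares.

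*STF2* and *TMA10* form the other pair of paralogs. Stf2 protects cells from drying and binds the mitochondrial ATP synthase, where it is thought to help the inhibitor proteins Inh1 and Stf1, and Tma10 is found with ribosomes. *TMA10* had the highest RPKM of the 10 genes in BYZ1, 9227 (9057 to 9398), the 10th highest of that library. In ZK2 it was at 3182 (3081 to 3285) and ranked 36. Its level in BYZ1 was 2.90 times (2.79 to 3.01) that in ZK2, a log2 ratio of -1.54. *STF2* was at 1291 (1227 to 1357) in BYZ1 and 643 (597 to 690) in ZK2, with ranks of 103 and 250. The log2 ratio of -1.01 lies at the edge of the size needed for a call, with an interval of -1.13 to -0.88. Relative to the median gene it was -0.83, so *STF2* is lower by either scale but called lower on the scale of read totals alone. *TMA10* was at 7.15 times the level of *STF2* in BYZ1 and at 4.95 times in ZK2. Neither inhibitor gene was called. *STF1* was at 2248 and 1140 (log2 ratio -0.98) and *INH1* at 864 and 739 (-0.23). Relative to the median gene these log2 ratios were -0.81 and -0.05.

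The genes *SPG1*, *SPG4* and *SPG5* were named together because mutants die at high temperature in stationary phase. Spg1 was detected in mitochondria, and Spg5 is needed to assemble the proteasome in quiescent cells. *SPG1* had 2852 reads in BYZ1 and 441 in ZK2, an RPKM of 2113 (2036 to 2192) against 335 (304 to 368). This is a level 6.31 times (5.70 to 6.99) as high in BYZ1, and the rank went from 59 to 476. *SPG4* was at 1885 (1819 to 1953) in BYZ1 and at 415 (384 to 448) in ZK2, 4.54 times (4.18 to 4.95) as high in BYZ1. *SPG5* went the other way. Its RPKM was 498 (479 to 518) in BYZ1 and 1010.4 (983 to 1038) in ZK2, a ratio of ZK2 to BYZ1 of 2.03 (1.93 to 2.13). The log2 ratio of 1.02 is at the edge of a call, and 1.19 relative to the median gene. In sacCer2, *SPG4* occupies chr13:483013-483360 and *SPG5* chr13:645655-646776 (plus strand), and *SPG1* chr7:962534-962821 (minus strand). *SPG3*, of the same naming, was close to silent, with 3 reads in BYZ1 and 8 in ZK2.

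*SPI1* encodes a cell wall protein held by a GPI anchor that takes part in weak acid resistance. Its RPKM was 772 (735 to 810) in BYZ1 and 2060.4 (1999 to 2124) in ZK2, from 1617 and 4210 reads, and its rank went from 196 to 63. This level in ZK2 was 2.67 times (2.52 to 2.83) that in BYZ1, with a log2 ratio of 1.42, the highest of the 10. The secreted wall glycoprotein gene *YGP1* is known to be induced when cells stop growing for want of nutrients. It had the highest level of the 10 genes in ZK2, 5216 (5152 to 5281, rank 17), against 3102 (3053 to 3151, rank 36) in BYZ1. The ratio was 1.68 (1.65 to 1.72), above 1 beyond counting error but under the size of a call, also relative to the median gene (log2 0.92). *MOH1*, reported to be needed for survival in stationary phase, was the lowest of the 10 genes in BYZ1, at 277 (254 to 302, rank 549). In ZK2 it was at 689 (652 to 727, rank 236), a ratio of 2.48 (2.25 to 2.75).

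The paralogs of the wall genes did not all follow them. *SED1*, the paralog of *SPI1* and a main wall protein of stationary cells, had the highest RPKM of both libraries, 34592 in BYZ1 and 50352.5 in ZK2. Its ratio of 1.46 (1.45 to 1.46) was in the same direction as that of *SPI1* but not called. *SPS100*, the paralog of *YGP1* and a gene of spore wall maturation, was at 1290 in BYZ1 and 145 in ZK2, a ratio of 0.112 (0.103 to 0.122). *YGP1* therefore stood at 2.40 times the level of *SPS100* in BYZ1 and at 36.0 times in ZK2. Sharing of reads with paralogs was not tested. In R64 none of the runs of 30 bases in the 10 open reading frames occurs a second time in the genome, and the longest run shared by a pair of paralogs is 17 bases, in *YGP1* and *SPS100*. Reads covered 93.5% to 99.9% of the coding length of the 10 genes in BYZ1 and 97.6% to 99.9% in ZK2. Whether differences in sequence between ZK2 and the reference cost reads was not tested.

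**Figure D2:**
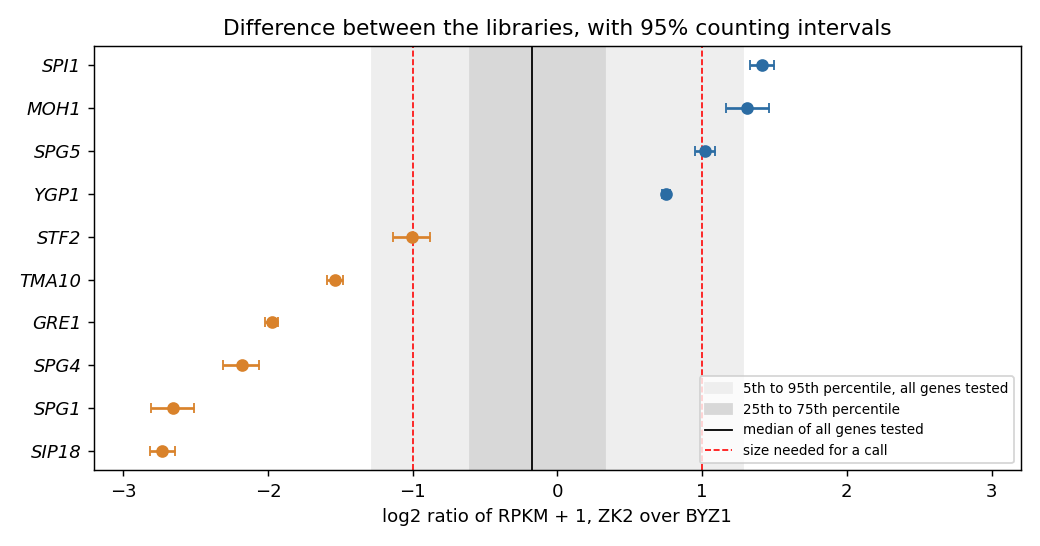
Log2 ratio of ZK2 to BYZ1 for each gene, with 95% counting intervals, over shaded bands that hold the central 50% and 90% of all 5080 genes tested. *SIP18*, *SPG1*, *SPG4*, *GRE1* and *TMA10* lie below the wider band, *STF2* and *SPG5* lie on the dashed lines at -1 and 1, and *SPI1* and *MOH1* lie just above the band's upper edge of 1.28.

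The order of the genes within a library differed between the strains. In BYZ1 it ran from *TMA10*, *GRE1* and *SIP18* through *YGP1*, *SPG1*, *SPG4* and *STF2* to *SPI1*, *SPG5* and *MOH1*. In ZK2 it ran from *YGP1*, *TMA10* and *GRE1* through *SPI1*, *SIP18*, *SPG5* and *MOH1* to *STF2*, *SPG4* and *SPG1*. Neighbors in these orders differed by more than counting error except *MOH1* and *STF2* in ZK2, whose intervals overlap. The coding lengths run from 240 to 1122 bp, and whether length affects these orders was not tested. The levels spanned a 33.3-fold range in BYZ1 and a 15.6-fold range in ZK2. Of the 10 genes, 6 were among the 100 genes of highest RPKM in BYZ1 and 4 in ZK2. All 10 took 1.45% of the gene reads in BYZ1 and 1.05% in ZK2. The 6 genes lower in ZK2 went from 1.01% to 0.262% and the other 4 from 0.432% to 0.79%.

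The encoded proteins differ in composition, and some of the 10 genes were chosen as hydrophilin genes. Hydrophilins are recognized by a glycine content above 6% and strong hydrophilicity, taken here as a mean Kyte-Doolittle value below -1 per residue, a limit set after the levels were known. From the reference open reading frames, 5 of the 10 genes met both limits: *GRE1* (13.1% glycine, mean -1.85), *SIP18* (12.7%, -1.55), *STF2* (11.9%, -1.61), *TMA10* (11.6%, -1.37) and *SPG4* (6.96%, -1.17). All 5 are among the 6 genes called lower in ZK2 on the scale of read totals. *SPG1* is the sixth, and its protein had 7.37% glycine but a mean of -0.12, less hydrophilic than Spg5 (-0.26) and Moh1 (-0.56), whose genes were called higher. The proteins of the 4 genes with higher levels in ZK2 had 4.05% to 5.80% glycine and means from -0.56 to 0.28, of which that of Moh1 alone lies below the median of all proteins, -0.39. Spi1 and Ygp1 are rich in serine and threonine, at 29.1% and 22.9%, and the 138 residues of Moh1 include 7 cysteines.

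Paralogs within the set differ in how far they have diverged. Sip18 (79 residues) and Gre1 (168 residues) align over 75 residues with 36% identity, and Stf2 and Tma10 (84 and 86 residues) over 84 residues with 64.3% identity. In both pairs, glycine content and hydrophilicity are close, and both members were lower in ZK2. Spi1 and Sed1 are identical at 59.6% of 146 aligned residues and Ygp1 and Sps100 at 52.3% of 304.

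Of 6002 reference proteins, 75 (1.25%) met both limits, and 71 of their genes were tested. Of these 71, 18 were called lower in ZK2 (25.4%) and 2 higher (2.82%), with a median log2 ratio of -0.65. Without the 5 genes described here, 13 of 66 were called lower (19.7%) and 2 higher, and on the TMM scale 11 of 66 were. These shares stand beside 10.3% lower and 7.91% higher over all genes tested, and beside 6.81% and 10.5% on the TMM scale. Among genes with a geometric mean RPKM of 400 or more, 8 of 15 that met both limits were called lower, and 3 of 10 without the genes described here. Over all 388 genes at that level, 9.79% were called lower and 11.9% higher. The TMM scale was not tried on this smaller group.

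**Figure D3:**
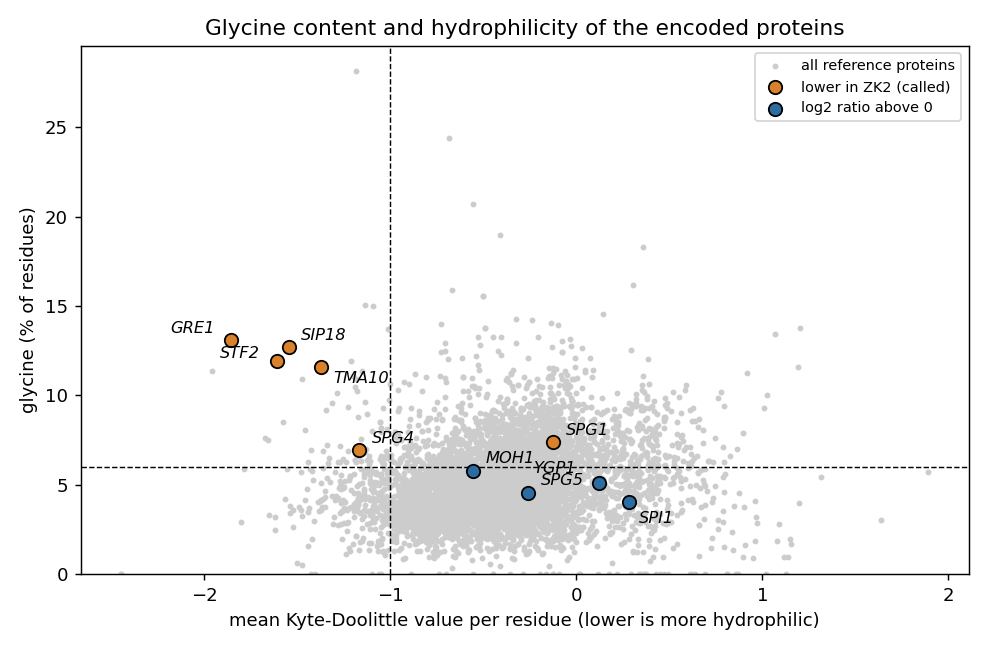
Glycine content (percent of residues) against the mean Kyte-Doolittle value for all reference proteins (grey) and for the 10 described here, orange where the gene was called lower in ZK2 and blue where its log2 ratio was above 0. Dashed lines mark 6% glycine and a mean of -1. *GRE1*, *SIP18*, *STF2*, *TMA10* and *SPG4* lie in the upper left corner, and all 4 blue points lie outside it.

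The 6 genes lower in ZK2 are short, with coding lengths of 240 to 507 bp, against 417 to 1122 bp for the other 4. Whether length has a part in these values was not tested. The 205 genes of 300 bp or less had a median log2 ratio of -0.01, and 13.7% were called lower and 15.1% higher. The 684 genes of 301 to 600 bp had a median of -0.11, with 9.36% lower and 7.75% higher. Of 388 genes with a geometric mean RPKM of 400 or more, a limit set after the values were seen and met by all 10, 9.79% were called lower and 11.9% higher, or 21.6% in either direction, against 10.3%, 7.91% and 18.2% over all genes tested. Of the 42 genes that were both at this level and 300 bp or less, 6 were called lower (14.3%) and 3 higher (7.14%). Of those 6 lower genes, 4 were *SIP18*, *SPG1*, *STF2* and *TMA10*, so this share is not independent of the set.

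Lists of related genes, chosen with earlier results of these data known, were set beside the 10. For each list, the shares over all genes tested were 10.3% lower and 7.91% higher, or 6.81% and 10.5% on the TMM scale. Of 11 tested genes for other hydrophilins and for desiccation and stationary-phase proteins, 2 were called lower and none higher, with a median log2 ratio of -0.32. The hydrophilin gene YJL144W, also needed for drying, was at 187 in BYZ1 and 29.9 in ZK2 (log2 ratio -2.61, from 276 and 43 reads). *SNZ1*, a vitamin B6 synthesis gene of stationary phase, had a log2 ratio of -1.01, which was not called on the TMM scale. The reductase genes *GRE2* and *GRE3*, found in the same screen for osmotic induction as *GRE1*, had log2 ratios of 0.24 and 0.33. The abundant hydrophilin *HSP12*, a protein of the plasma membrane, was at 22693 in BYZ1 and 11786 in ZK2 and missed the call at -0.95.

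Of 14 genes that serve as reporters of Msn2 and Msn4, 8 were called lower and none higher, on each scale tried, with a median log2 ratio of -1.45. The small heat-shock gene *HSP26* (17553 in BYZ1 and 2026 in ZK2, log2 ratio -3.11) and the catalase gene *CTT1* (756 and 95.7, -2.97) were the lowest. The phosphoglucomutase gene *PGM2* (0.12) and the glycogen phosphorylase gene *GPH1* (-0.02) were the highest. *SPI1*, whose basal expression is known to require Msn2 and Msn4, was thus higher in ZK2 while most of these reporters were lower.

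Of 8 other targets of Haa1, 3 were called higher in ZK2 and none lower, with a median of 0.59, and on the TMM scale 4 were. The polyamine transporter gene *TPO2* had 16 reads in BYZ1 and 158 in ZK2 (log2 ratio 2.79), and the glycerol phosphatase gene *HOR2* had 89 and 232 (1.38). The lowest were the transporter gene *TPO3* (-0.76) and the kinase gene *HRK1* (-0.16). *TPO2* and *TPO3* are paralogs, and in ZK2 reads covered 34.3% of *TPO3* against 71.0% in BYZ1, so their split is uncertain. *SPI1*, *YGP1* and *GRE1* are known targets of Haa1 as well. *SPI1* was called higher in ZK2 and *GRE1* lower, and *YGP1* had a log2 ratio of 0.75.

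Transcripts of the regulators themselves moved in both directions. Of 18 tested, 5 were called lower and 1 higher, with a median log2 ratio of -0.51. The counts were 4 and 2 on the TMM scale and 3 and 2 on that of the median gene ratio. Over all genes tested, 10.3% were lower and 7.91% higher, 6.81% and 10.5% on the TMM scale and 6.71% and 10.5% on the third. The 1 or 2 called higher are near those shares. The glucose repressor gene *MIG1* (45.8 in BYZ1 and 11.4 in ZK2, log2 ratio -1.91) and the quiescence repressor gene *XBP1* (353 and 129, -1.45), which is also among the reporters, were the lowest. *MSN4* (46.1 and 115, 1.30) and the repressor gene *NRG2* (35.1 and 69.0, 0.96) were the highest.

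**Figure D4:**
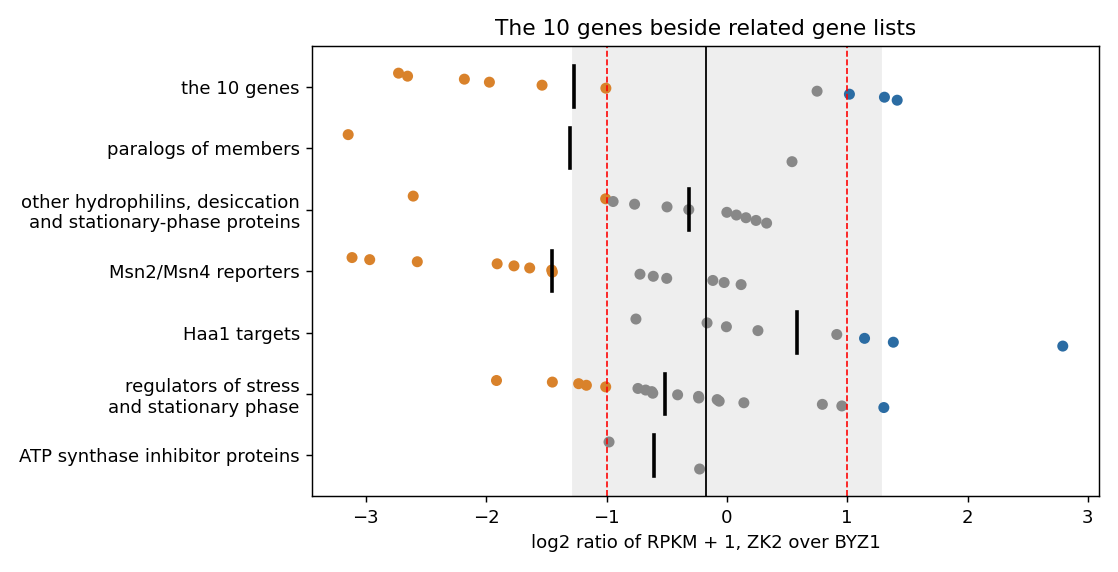
Log2 ratio of ZK2 to BYZ1 for the 10 genes and 6 related lists, 1 point per gene, orange where called lower, blue where called higher and grey otherwise. Thick bars are list medians, the thin line is the median of all genes tested (-0.17), the shaded band holds their central 90% and dashed lines mark -1 and 1. The 10 genes fall into 6 on the left and 4 on the right, the Msn2/Msn4 reporters reach -3.11 and the Haa1 targets reach 2.79.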

How the data were processed

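Poly(A) RNA of BYZ1 and ZK2 was sequenced by the authors on an Illumina HiSeq, and 1 table per strain was deposited. For BYZ1 the study's methods state that adapter and low-quality reads were removed and the rest aligned to genes with SOAPAligner. Its version, and the aligner of ZK2, are not given in the sources used here. The deposited read counts are uniquely mapped reads per gene, with no normalization. The deposited RPKM equals count over coding length and over the total count, as recomputed for every gene. The deposited coverage is the percent of the coding length with reads. Tables were joined by gene ID, since 1 symbol in the ZK2 table had been turned into a date, and *IGO1* and *IGO2*, which the tables give under systematic names, were found by ID.

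Log2 ratios used RPKM plus 1 (a pseudocount that understates changes of low genes) and genes that reached an RPKM of 10 in either library. Rank 1 is the highest RPKM in a library. Intervals at 95% cover counting error alone. Alternatives were the TMM factor (edgeR 4.0.16, R 4.3.3), the median of gene ratios, totals without the 10 leading genes, pseudocounts of 0.1 and 5, no filter, an RPKM filter of 50, and ranks by read count or over shared genes. Upstream windows and proteins were read from R64 with its own annotation (Biopython 1.88, global alignment with BLOSUM62), never with sacCer2 coordinates. Tables of upstream regions and proteins were not used here. Of the gene IDs, 5693 matched R64 and 6 did not. The upstream window, the hydrophilicity limit, the RPKM limit of 400 and the length classes were chosen after the data were seen. The calculations used Python 3.11.15 and SciPy 1.17.1, and the code for calls and intervals was run on simulated Poisson counts. Those counts hold counting error alone, so they say nothing of differences between cultures.

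The members and lists were chosen with earlier results of these data known. The text names all 10 members and their paralogs, and in each other list the 2 highest and 2 lowest log2 ratios. *HSP12*, *GRE2*, *PAI3*, YMR175W-A and *CBK1* were named after their values were seen.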

Additional observations from a re-analysis of the deposited data

How the results depend on the processing

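Each strain has 1 library, so none could be left out and no value has a replicate error. No paired analysis was possible because each strain has a single sample. The count of genes called higher stayed at 3 under all 7 alternatives of scale, pseudocount and filter, and the count called lower stayed at 6 under 5 of them. It was 5 with the TMM factor and with the median of gene ratios, because *STF2* then missed the call. On these 2 scales the median log2 ratio of the 10 genes was -1.10 and -1.09, against -1.27 as reported, since both shift all log2 ratios by about 0.18. Over all genes tested, 524 were lower and 402 higher as reported, 346 and 535 with the TMM factor, 341 and 535 with the median of gene ratios, and 274 and 283 with the RPKM filter of 50. None of the 10 genes changed sign in 70 recomputed log2 ratios. None could, since the scales shifted log2 ratios by at most 0.178 and the smallest ratio was 0.75 in size. The pseudocounts and filters left little room for change either, since the 10 genes had an RPKM of 277 or more in each library. With the TMM factor, the Msn2/Msn4 reporters above 0 went from 1 to 3 and the Haa1 targets above 0 from 5 to 7. Ranks by read count, which favor long genes, differed from ranks by RPKM for all 20 values. Ranks over genes listed in both libraries were unchanged for all 20. No gene left out ranked above any of the 10, so this check could not move them. Depth did not limit these genes, each of which had 441 reads or more.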
